A study of Mus musculus with 6 samples.

Results

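The adipocyte lineage genes described here are 10 regulators and products of fat cell formation: the transcription factors Pparg, Cebpa, Cebpb, Klf5 and Zfp423, the intracellular lipid proteins Fabp4, Plin1 and Scd1, and the secreted proteins Adipoq and Cfd. They were chosen by name, by a rule with no threshold on a measured value but with earlier results of these data known, and each was found once by gene symbol among the 49328 genes of the deposited expression table. The table holds RNA sequencing of cultured mouse cells labelled MSCs (mesenchymal stromal cells, the adherent stroma of bone marrow), released from whole marrow by digestion. All 6 cultures came from CB6F1 mice with acute graft-versus-host disease (aGVHD), the attack of grafted immune cells on the host, so no culture of healthy marrow was compared. A group of 3 libraries, called R, received a compound that the labels name only as R at a dose of 0.5 um (the unit as written there), and 3 libraries, called vehicle, received DMSO. The age and sex of the mice, the graft given, the length of treatment and any adipogenic induction of the cultures are not stated in the sources at hand. No label ties a replicate to an animal or a culture of its own; the p-values therefore reflect only how far these libraries differ, and part of that may be technical.

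Fat cells arise from stromal precursors through a cascade of transcription factors. Cebpb and Klf5 act early and help to switch on Pparg and Cebpa, which then maintain each other and turn on the genes of the mature cell, among them Fabp4, Plin1, Adipoq and Cfd. Zfp423 marks cells committed to the lineage. In marrow, adiponectin (Adipoq) is also made by stromal precursors that hold little lipid, and Pparg, Cebpa, Cebpb and Fabp4 are expressed by macrophages as well, so none of these 4 genes marks fat cells by itself.

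The bases before the starts of the genes on which the results turn are shown for the 2 master regulators and for 3 fat cell products. Within the vehicle group these 3 were high in the same library. RefSeq (GRCm38.p6) gave promoter windows for 7 of the 10 genes, in 10 windows. Each sequence below is the 250 bases before a start, written 5′ to 3′ on the gene's strand. Capitals mark exact matches, on either strand, to 6 short motifs: TATAAA (the TATA box), CCAAT (the box of that name), GGGCGG (the GC box), TTGCNNAA (the core bound by C/EBP factors), TTCNNNGAA (the element of STAT factors) and AGGTCA (the unit that nuclear receptors such as PPARG bind in pairs). No match of one motif overlapped that of another in these windows. Pparg is shown at its first and its last start. The last start belongs to the isoform known as Pparg2, which is typical of fat cells. The deposited values are per gene and cannot be divided between the isoforms.
Pparg, first start, chr6:115360894-115361143, plus strand: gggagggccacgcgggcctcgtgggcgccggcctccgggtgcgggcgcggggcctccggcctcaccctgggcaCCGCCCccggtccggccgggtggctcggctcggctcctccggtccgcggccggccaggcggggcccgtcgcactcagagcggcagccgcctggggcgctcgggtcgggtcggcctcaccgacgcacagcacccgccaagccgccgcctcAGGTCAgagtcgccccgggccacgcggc
Pparg, last start, chr6:115421816-115422065, plus strand: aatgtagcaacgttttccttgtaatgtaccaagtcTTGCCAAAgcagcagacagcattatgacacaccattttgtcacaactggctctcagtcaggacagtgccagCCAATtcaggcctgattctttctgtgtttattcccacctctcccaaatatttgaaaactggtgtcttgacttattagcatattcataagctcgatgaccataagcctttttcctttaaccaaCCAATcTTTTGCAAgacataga
Cebpa, chr7:35119043-35119292, plus strand: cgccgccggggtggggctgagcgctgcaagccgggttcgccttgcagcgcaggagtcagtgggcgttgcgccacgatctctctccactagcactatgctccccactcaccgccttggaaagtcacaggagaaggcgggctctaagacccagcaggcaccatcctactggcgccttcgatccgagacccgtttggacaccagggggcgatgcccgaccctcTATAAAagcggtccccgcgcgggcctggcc
Adipoq, chr16:23146286-23146535, plus strand: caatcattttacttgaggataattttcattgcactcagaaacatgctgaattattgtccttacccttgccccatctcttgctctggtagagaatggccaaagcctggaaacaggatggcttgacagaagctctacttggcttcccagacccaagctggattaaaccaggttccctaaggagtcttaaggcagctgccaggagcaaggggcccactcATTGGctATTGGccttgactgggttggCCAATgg
Plin1, chr7:79732777-79733026, minus strand: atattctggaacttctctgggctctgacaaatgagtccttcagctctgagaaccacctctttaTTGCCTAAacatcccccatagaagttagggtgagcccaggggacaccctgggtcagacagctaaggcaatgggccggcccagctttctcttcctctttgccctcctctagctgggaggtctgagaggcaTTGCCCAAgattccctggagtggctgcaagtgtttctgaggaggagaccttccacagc
Cfd, chr10:79890603-79890852, plus strand: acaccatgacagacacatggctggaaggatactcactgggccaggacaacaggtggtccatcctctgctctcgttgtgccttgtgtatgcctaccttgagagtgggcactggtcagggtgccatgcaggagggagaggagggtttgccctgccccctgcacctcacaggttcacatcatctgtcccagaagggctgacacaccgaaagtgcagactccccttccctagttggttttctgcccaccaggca
The C/EBP core was found 2 times before the last Pparg start and 2 times before Plin1, and it stood in 9.56% of 32851 promoter windows of this length. The CCAAT letters were found 3 times before Adipoq and 2 times before the last Pparg start (33.8% of windows). A TATA box lay 30 bases before the start of Cebpa (12.4% of windows), and the nuclear receptor unit stood before the first Pparg start (14% of windows). The STAT element was in none of the 10 windows of these genes (7.02% of windows). The first Pparg window was 82.4% G and C and the last 40.8%, against a median of 52.4% over all windows. The Cfd window held none of the 6 motifs. Such matches describe the letters and are not evidence of binding.

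The unit is FPKM (fragments per kilobase, scaled to the fragments counted in a library). Levels can be compared between genes only as far as the gene lengths used hold. The estimated depth was 17070000 to 21750000 reads in a library, at which 3 reads on a gene of 1 kb stand for 0.138 to 0.176 FPKM. A gene was tested if it had at least 1 FPKM in at least 3 of the 6 libraries, and a change is called where limma's p, adjusted over all 11862 tested genes, is under 0.05. Of the genes tested, 6.82% were called between R and vehicle, 2.39% as higher in R and 4.43% as lower. The labelled cell type was checked against its markers. Of 14 stromal markers, Nt5e, Lepr, Lum and Dcn were under 1 FPKM in each library, and 0 of the 9 tested passed in limma (3 at an unadjusted p under 0.05). Macrophage markers summed to 17411 to 23180 FPKM in vehicle and 14147 to 17867 FPKM in R, against 361 to 728 and 646 to 1058 FPKM for the stromal markers. These ranges overlapped between R and vehicle for both lists. Of the 18 macrophage markers 4 fell and 0 rose, and 12 had an unadjusted p under 0.05 in limma, against 24% of all tested genes. Lyz2 alone made up 8707 to 12885 FPKM of their sums, but C1qb (970 to 2285 FPKM) and Ctss (691 to 1358 FPKM) were also high. All 18 passed the filter on low values. The macrophage markers thus summed above the stromal markers in every library. The RNA cannot be taken as that of stromal cells alone. Markers of T and NK cells, B cells, neutrophils and endothelium each summed to 14.3 FPKM or less in every library, and 1 marker of these 4 lists, Nkg7, passed the test, lower in R. Of 7 measured markers of mature fat cells outside the 10 genes, 6 stayed under 1 FPKM in each library. The other, the droplet coat protein Plin4, had 12.7 ± 7.03 FPKM in vehicle and 22.1 ± 8.09 FPKM in R and did not pass (adjusted p = 0.28). Of the 6, the satiety hormone Lep was listed at 0 in all libraries, where 3 reads would be 0.0411 to 0.0524 FPKM.

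The genes spanned a wide range of levels. In vehicle, mean FPKM ran from Cebpb (138) and Cebpa (105) through Pparg (14.4), Fabp4 (11.3), Scd1 (9.56) and Adipoq (8.09) to Zfp423 (0.989), Plin1 (0.64), Cfd (0.561) and Klf5 (0.343). Cebpb and Cebpa stood high among all tested genes, with 2.49% and 2.93% of these above them. The neighbours Pparg, Fabp4, Scd1 and Adipoq overlapped in their vehicle values, as did Zfp423, Plin1, Cfd and Klf5. The exon length of Fabp4, 4489 bases, covers its whole span on the chromosome. Its FPKM may therefore be understated beside the other genes. Over the vehicle libraries Fabp4 had an estimated 2830 reads and Pparg 2388. By the filter 6 of the 10 genes were tested, and Plin1, Cfd, Zfp423 and Klf5 were too low.

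Between R and vehicle 0 of the 6 tested genes passed limma's threshold in either direction. At an unadjusted p under 0.05 there were 4 of 6, Pparg, Cebpa, Fabp4 and Scd1, each higher in R. Of all tested genes 24% reached that level and 11.4% did so as higher in R. The median log2 change of the 6 was 0.46, against -0.004 over all tested genes. Of the 6 values 5 were positive, against 49.3% of all tested genes. In 3 of the 6, Pparg, Cebpa and Fabp4, every R library lay above every vehicle library, as in 13.9% of all tested genes. Since the RNA is from bulk cultures, more cells of a type and more RNA per cell cannot be told apart. The stromal markers had a median log2 change of -0.22, with 4 positive and 5 negative values among the 9 tested. The 3 of them with an unadjusted p under 0.05 in limma, Col1a1 (1.19), Pdgfrb (0.65) and Prrx1 (0.53), were all higher in R. The macrophage markers had a median of -0.51, with 17 of 18 negative. The part of these markers in the values was not tested.

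**Figure D1:**
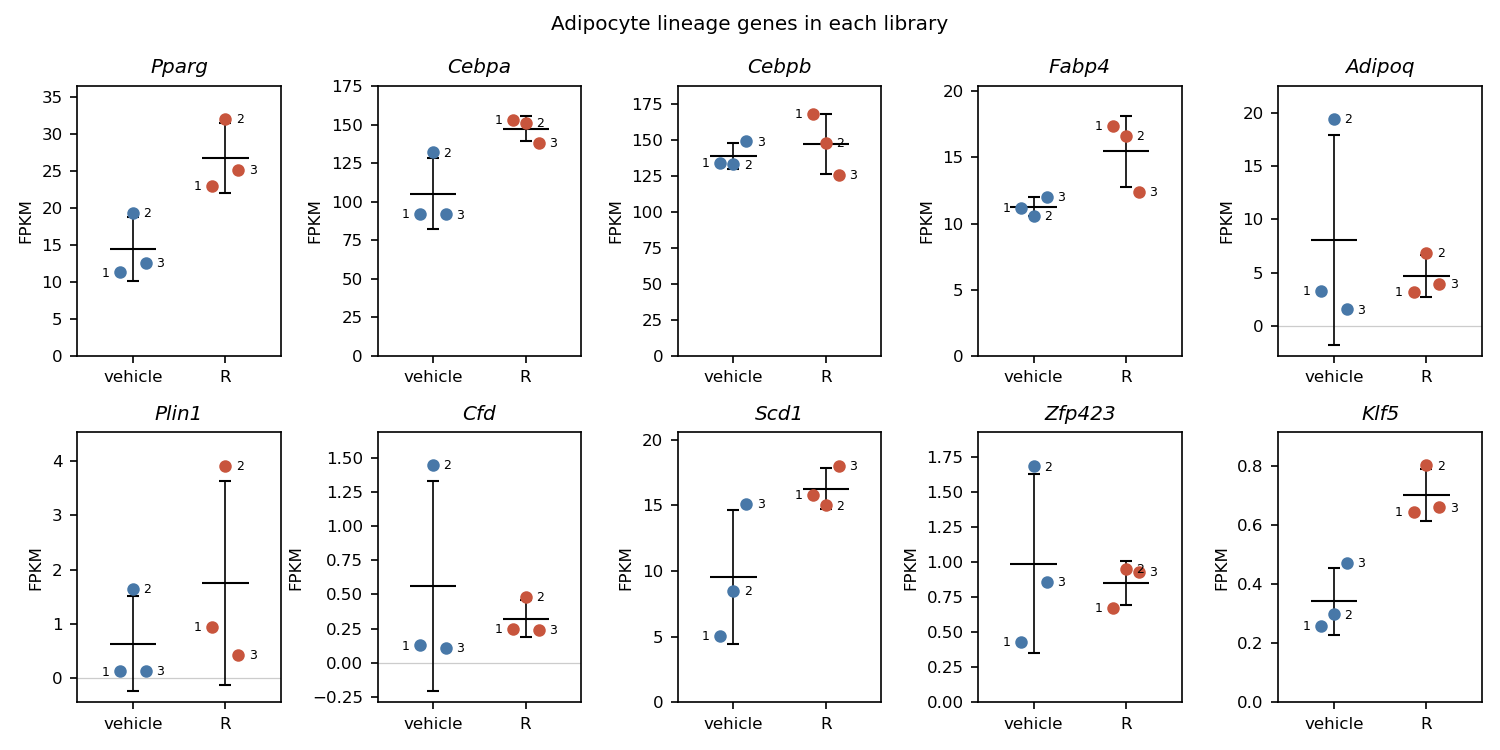
FPKM of each of the 10 genes (vertical axes, linear, 1 panel a gene) in the 3 vehicle and 3 R libraries. Points are libraries with their replicate number, bars the group mean and SD. The R points of Pparg, Cebpa, Fabp4 and Klf5 all lie above the vehicle points, while vehicle replicate 2 stands far above the other vehicle libraries for Adipoq, Plin1 and Cfd.

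Pparg (chromosome 6, 115360951 to 115490399, GRCm38) encodes the nuclear receptor on which fat cell formation depends. Its level was 23, 32.1 and 25.2 FPKM in R replicates 1, 2 and 3 and 11.3, 19.4 and 12.6 FPKM in vehicle replicates 1, 2 and 3. The lowest R library stood above the highest vehicle library, and replicate 2 was the highest of each group. The means were 26.8 ± 4.74 FPKM in R and 14.4 ± 4.32 FPKM in vehicle (SD, n = 3 each), a 1.86-fold difference. The log2 change on the log2(FPKM + 1) scale was 0.87 (SE 0.21, 95% interval 0.38 to 1.36, adjusted p = 0.0528 in limma), just over the threshold. Without vehicle replicate 2 the change was 1.09 and passed (adjusted p = 0.023). It also passed with a stricter filter on low values (adjusted p = 0.0473) and with equal library medians (adjusted p = 0.0464). Without any 1 of the other libraries it did not pass (adjusted p from 0.081 to 0.17), nor without a low-value filter (adjusted p = 0.14), and with array weights the change was 0.53 (adjusted p = 0.11).

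Cebpa (chromosome 7, 35119293 to 35121928) is the partner that keeps Pparg switched on in fat cells and also directs myeloid development. It measured 153, 151 and 138 FPKM in R and 92.2, 132 and 91.8 FPKM in vehicle. The groups did not overlap, but vehicle replicate 2 came close to the lowest R library. The log2 change was 0.50 (SE 0.15, 95% interval 0.14 to 0.86, adjusted p = 0.1), and without vehicle replicate 2 it was 0.67 and passed (adjusted p = 0.032). It did not pass without any 1 of the other libraries, with changes of 0.41 to 0.54 (adjusted p from 0.13 to 0.32). The antisense gene Gm45091 shares 51 of its 2636 exon bases and had 0.798 FPKM on average.

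Cebpb (chromosome 2, 167688915 to 167690418), the early inducer of the cascade and a factor of inflammatory gene expression, stood level between the groups. It had 168, 148 and 126 FPKM in R and 134, 133 and 149 FPKM in vehicle, and the R libraries lay on both sides of the vehicle libraries. The log2 change was 0.08 (SE 0.12), with a 95% interval from -0.21 to 0.37. Of its 1504 exon bases 312 are shared with Tmem189 on the opposite strand (46.1 FPKM on average), and since the strandedness of the libraries is not given, some reads may belong to either gene.

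Klf5 (chromosome 14, 99298691 to 99315036), a Krüppel-like factor that acts with Cebpb before Pparg is induced, was low in all libraries. It had 0.645, 0.802 and 0.66 FPKM in R, from an estimated 73, 75 and 62 reads, and 0.259, 0.298 and 0.471 FPKM in vehicle, from 23, 29 and 49 reads. Every R library was above every vehicle library, with a ratio of group means of 2.05. It was under the filter and was therefore not tested in the main comparison. With the filter lifted the log2 change was 0.34 (SE 0.09, adjusted p = 0.17), and the difference was 0.88 with a pseudocount of 0.1 and 0.09 with one of 5.

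Zfp423 (chromosome 8, 87661810 to 87959595), the zinc finger factor of committed precursors, showed no such separation. Its FPKM was 0.672, 0.952 and 0.928 in R and 0.428, 1.68 and 0.856 in vehicle. The vehicle libraries held both the lowest and the highest value, the highest again being replicate 2. The log2 difference of -0.06 turned to 0.18 without vehicle replicate 2 and to 0.01 without R replicate 1.

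**Figure D2:**
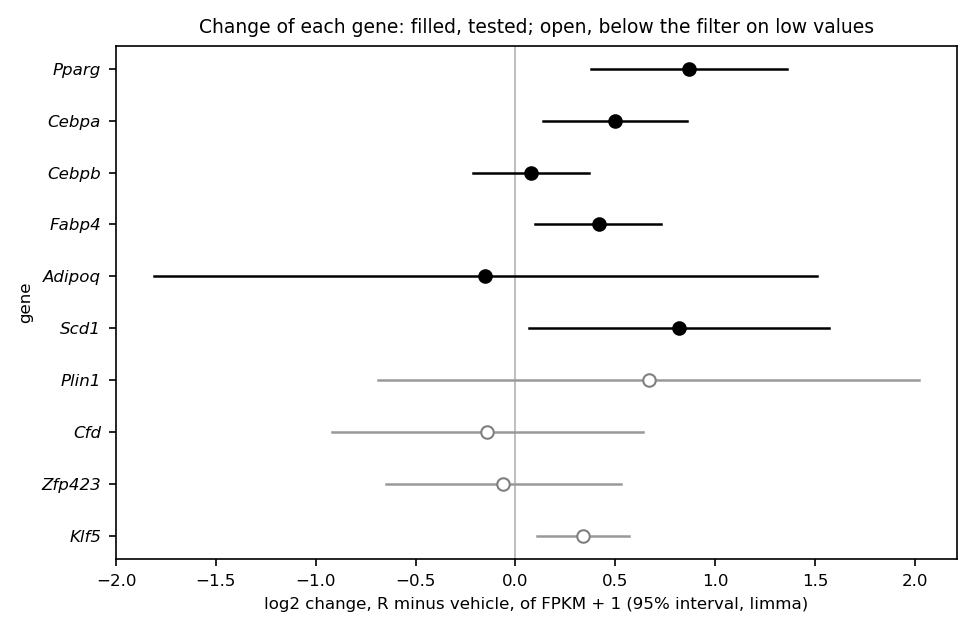
Log2 change of FPKM + 1, R minus vehicle (horizontal axis), for each gene with its 95% interval from limma, not adjusted for the number of genes. Filled points are the 6 tested genes and open points the 4 genes below the filter, fitted without it; the intervals of Pparg, Cebpa, Fabp4, Scd1 and Klf5 lie above 0, and those of Adipoq and Plin1 are the widest.

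Among the lipid proteins, Fabp4 (chromosome 3, 10204088 to 10208576), which carries fatty acids inside fat cells and macrophages, had 17.4, 16.6 and 12.4 FPKM in R and 11.2, 10.6 and 12 FPKM in vehicle. The groups did not overlap, but R replicate 3 was close to the highest vehicle library. The log2 change was 0.42 (SE 0.13, 95% interval 0.10 to 0.73, adjusted p = 0.11), and without R replicate 3 it was 0.56 and passed (adjusted p = 0.033). It also passed with array weights (adjusted p = 0.0083), but without any 1 of the other libraries it did not (changes of 0.33 to 0.46, adjusted p from 0.14 to 0.3). The vehicle libraries, among them replicate 2, lay within a narrow range, unlike those of Adipoq or Plin1.

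Scd1 (chromosome 19, 44394455 to 44407879), the desaturase that makes monounsaturated fatty acids, had 15.8, 15 and 18 FPKM in R. In vehicle it had 5.05, 8.48 and 15.1 FPKM, a 3-fold spread. Vehicle replicate 3 reached the level of the R libraries and the other 2 lay below. The log2 change was 0.82 (SE 0.32, 95% interval 0.07 to 1.57, adjusted p = 0.17), and without vehicle replicate 3 it was 1.18 and passed (adjusted p = 0.022). Without vehicle replicate 1, the lowest library, it was 0.48 (adjusted p = 0.39). It passed with array weights (adjusted p = 0.042), and it did not pass when any 1 of the other 4 libraries was left out (adjusted p from 0.27 to 0.33).

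Plin1 (chromosome 7, 79720218 to 79732903), the coat protein of the fat cell's lipid droplet, had 0.94, 3.91 and 0.428 FPKM in R and 0.126, 1.65 and 0.14 FPKM in vehicle. These stand for an estimated 95, 327 and 36 reads and 10, 144 and 13 reads. The spread within a group was as wide as any difference between them: R replicate 2 was 9.13 times R replicate 3, and vehicle replicate 2 was 13.1 times vehicle replicate 1. With the filter lifted the log2 change was 0.67 with a 95% interval from -0.69 to 2.02. It was 0.15 without R replicate 2, 1.04 without R replicate 3 and 1.08 without vehicle replicate 2, and 1.51 with a pseudocount of 0.1 and 0.24 with one of 5.

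The secreted products were, like Plin1, highest in replicate 2 among the vehicle libraries. Adipoq (chromosome 16, 23146536 to 23158028), which encodes the hormone adiponectin, had 3.2, 6.89 and 3.97 FPKM in R and 3.31, 19.4 and 1.56 FPKM in vehicle. Vehicle replicate 2 was the highest of all 6 libraries and vehicle replicate 3 the lowest. The log2 change was -0.15 (SE 0.71, 95% interval -1.81 to 1.51, adjusted p = 0.93), and without vehicle replicate 2 its sign turned, to 0.72 (adjusted p = 0.31). So wide an interval holds both a large fall and a large rise.

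Cfd (chromosome 10, 79890853 to 79892655), the complement protease adipsin, abundant in mature fat tissue, rested on very few reads here. The libraries held an estimated 5, 8 and 4 reads in R and 2, 25 and 2 reads in vehicle, or 0.249, 0.482 and 0.24 FPKM and 0.127, 1.45 and 0.108 FPKM. Only vehicle replicate 2 stood well above the 3 reads taken as the floor of detection (0.174 FPKM in that library). A difference between the groups was not detectable at this depth, and the log2 difference of -0.14 turned to 0.24 without vehicle replicate 2.

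Adipoq, Plin1 and Cfd thus shared a value in vehicle replicate 2 far above the other vehicle libraries. Over all 6 libraries Adipoq and Cfd were highest there, but Plin1 was highest in R replicate 2 (3.91 against 1.65 FPKM). For Adipoq and Plin1, vehicle replicate 2 was 7.97 and 12.4 times the mean of the other vehicle libraries, and R replicate 2 was 1.92 and 5.72 times the mean of the other R libraries. For Cfd no fold is given, since the other vehicle libraries held fewer than 3 reads. Replicate 2 was the highest library of both groups in 5 of the 10 genes, these 3 with Pparg and Zfp423, and in 2 of the 6 tested genes. Of all tested genes 9.45% had that pattern. It was looked for after the values had been seen. In R, replicate 2 led by little for Zfp423 (0.952 against 0.928 FPKM in replicate 3), and Cfd had only 5, 8 and 4 reads. In 15 of the 11862 tested genes vehicle replicate 2 was at least 5 times the mean of the other vehicle libraries, and Adipoq was among them. Most of the 15 had 0 FPKM in another vehicle library, and only Adipoq, Esm1, Comp and Cd300ld3 had a value above 0 in each. At 2 times the mean of the others there were 144 genes for vehicle replicate 2, 107 for replicate 1 and 211 for replicate 3. Among other fat cell genes, also picked after their values were seen, some ran alike and some did not. Aqp7, the glycerol channel of fat cells, had 0.0207, 0.585 and 0.0353 FPKM in vehicle and 0.26, 0.688 and 0.235 FPKM in R. Rbp4, a retinol carrier that fat tissue secretes, had 0.723, 2.59 and 0.424 FPKM in vehicle and 1.03, 3.09 and 1.58 FPKM in R. The 2 genes were highest in replicate 2 of each group. Plin4 was highest in vehicle replicate 2, but in R it had 13.1, 24.4 and 28.7 FPKM and was highest in replicate 3. The marrow niche chemokine Cxcl12 was high in vehicle replicate 2 as well (168 FPKM against 34.8 and 43) but not in R replicate 2 (14.1 FPKM against 16.6 and 64.1). Summed stromal markers were 361, 728 and 640 FPKM in vehicle and 888, 646 and 1058 FPKM in R, so replicate 2 was not the highest of both groups there. The part of these markers in the pattern was not tested.

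**Figure D3:**
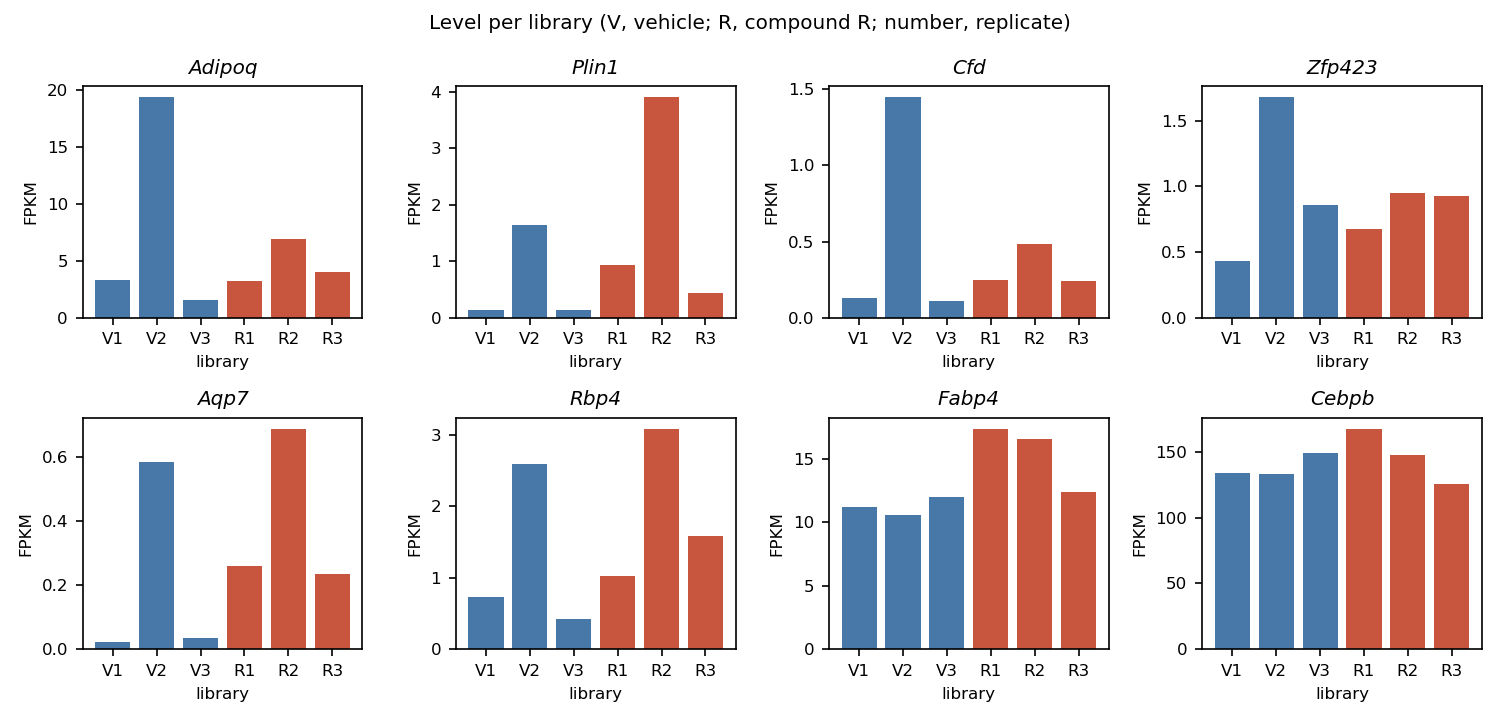
FPKM (vertical axes, linear from 0) in each library, vehicle in blue and R in red, with the replicate number under each bar. Adipoq, Plin1, Cfd, Zfp423, Aqp7 and Rbp4 are highest in replicate 2 of each group, whereas Fabp4 and Cebpb are not. In R the lead of replicate 2 is small for Zfp423 and rests on few reads for Cfd.

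The wider adipogenic pathway was described through 7 lists of 130 symbols. They include Wisp2 and Pref1, older names of Ccn5 and Dlk1 that are listed too, while Cidea, Gpihbp1 and Retnla were not analysed here. Of the 97 genes tested 2 rose and 4 fell in R, close to the shares of 2.39% and 4.43% over all tested genes. The median log2 change over the 97 was 0.06. An unadjusted p under 0.05 in limma was reached by 4 of 23 transcription factors, 8 of 23 repressors and 2 of 12 receptors. It was reached by 5 of 11 droplet genes, 4 of 14 synthesis genes, 2 of 6 uptake genes and 4 of 8 secreted products. Of all tested genes 24% reached that level.

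Of 23 tested transcription factors and cofactors that act with the members 0 rose and 1 fell, with a median log2 change of -0.14. Stat5a, a signal transducer that promotes Pparg expression, fell by 0.42 on the log2 scale (adjusted p = 0.034), with means of 6.71 ± 0.306 FPKM in vehicle and 4.78 ± 0.221 FPKM in R. Its call survived only the removal of vehicle replicate 3, and the adjusted p reached 0.14 when another library was removed. The retinoid receptors that pair with PPARG did not pass: Rxra had 26.9 ± 1.6 FPKM in vehicle and 30.3 ± 2.57 FPKM in R, and Rxrb 20.8 ± 1.28 and 22.3 ± 1.75 FPKM. Xbp1, a factor of the unfolded protein response that is also needed for adipogenesis, had 47.2 ± 1.32 and 38 ± 2.38 FPKM (adjusted p = 0.072).

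Of 23 tested repressors of adipogenesis 2 rose and 0 fell, with a median of 0.23. Hes1, a transcriptional repressor downstream of Notch, had 4.75, 7.6 and 6.97 FPKM in vehicle and 18.1, 21 and 16.6 FPKM in R. Each R library stood above each vehicle library, and the rise was 1.41 on the log2 scale (SE 0.17, adjusted p = 0.0045). Wwtr1, which encodes TAZ, a coactivator that binds and restrains PPARG, rose by 0.69 on the log2 scale (adjusted p = 0.0496), with means of 7 ± 1.52 FPKM in vehicle and 11.8 ± 1.35 FPKM in R. Its call too survived only the removal of vehicle replicate 3, with an adjusted p of up to 0.12 otherwise, and it ended with a pseudocount of 0.1 (adjusted p = 0.0526). The most abundant repressors, Ctnnb1 (beta-catenin), Tgfb1 and Ccn5, had log2 changes of 0.26, -0.08 and 0.01 and did not pass.

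None of the 12 tested receptors and upstream signals passed, with a median of 0.02. An unadjusted p under 0.05 in limma was seen for 2 of them, against 24% of all tested genes. Pdgfrb, a growth factor receptor of perivascular stroma, had 33.9 ± 5.22 FPKM in vehicle and 54.4 ± 12 FPKM in R (adjusted p = 0.088). The difference passed without R replicate 1 (adjusted p = 0.039) but not without any 1 of the other libraries (adjusted p from 0.11 to 0.27). Fgfr1 and the growth hormone receptor Ghr had log2 changes of 0.44 and 0.63.

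None of the 11 tested lipid droplet and lipolysis genes passed either, with a median of 0.28. An unadjusted p under 0.05 in limma was seen for 5 of them, against 24% of all tested genes. A positive value was seen for 9, against 49.3% of all tested genes. The droplet coats Plin2 and Plin3, which most cells use, had 121 ± 9.36 and 31.7 ± 0.797 FPKM in vehicle and 144 ± 22.4 and 33 ± 3.81 FPKM in R. The triglyceride lipase Pnpla2 had 35.3 ± 2.76 and 43.3 ± 6.25 FPKM. Cidec, which fuses lipid droplets and is a known target of PPARG, was under the filter and was picked after its values were seen. It had an estimated 1, 2 and 2 reads in vehicle and 28, 24 and 16 reads in R, or 0.0316, 0.0575 and 0.0539 FPKM and 0.694, 0.719 and 0.477 FPKM. With the filter lifted, where 0.254% of 25575 genes were called higher in R, it passed (log2 change 0.63, SE 0.07, adjusted p = 0.022). It did not share the peak of Plin1 in vehicle replicate 2.

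Enzymes of fatty acid and triglyceride synthesis gave 0 rises and 1 fall among 14, with a median of 0.09. Acsl1, which activates fatty acids with coenzyme A, fell by 0.94 on the log2 scale (SE 0.13, adjusted p = 0.0083), with 13.2, 11.8 and 10.5 FPKM in vehicle and 6.32, 4.73 and 6.1 FPKM in R. Scd1's companions in lipid synthesis Slc25a1, Acly and Me1 had log2 changes of 0.30, 0.06 and 0.70 and did not pass. Of the 6 genes of fatty acid and glucose uptake 0 rose and 1 fell, with a median of -0.27. Cd36, a fatty acid transporter and macrophage scavenger receptor, fell by 0.87 on the log2 scale (adjusted p = 0.04), with means of 92.7 ± 16.8 FPKM in vehicle and 50.6 ± 10.8 FPKM in R. The call ended without R replicate 2 or 3 or vehicle replicate 1 or 2 (adjusted p up to 0.13). Lpl, the lipoprotein lipase, and Fabp5, the relative of Fabp4, had 103 ± 20.6 and 84.4 ± 14.2 FPKM in vehicle and 87.1 ± 14 and 67 ± 6.61 FPKM in R, without passing. Fabp4 and Fabp5 thus had values of opposite sign, 0.42 and -0.32, neither of which passed, and the difference between the genes was not tested.

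Of the 8 adipokines and other secreted products or their receptors 0 rose and 1 fell, with a median of 0.09. Nampt, an NAD-producing enzyme also known as visfatin, was lower in R (adjusted p = 0.0082), with 53.7, 50.9 and 42 FPKM in vehicle and 28.2, 21.5 and 22.3 FPKM in R. Apoe, which macrophages also make in quantity, had 2910 ± 181 FPKM in vehicle and 3839 ± 710 FPKM in R. The adiponectin receptor Adipor1 had 57.9 ± 1.31 and 67.9 ± 3.52 FPKM, and neither passed. Haptoglobin (Hp), a hemoglobin-binding protein secreted by fat tissue and by myeloid cells, had 77.2, 114 and 33.6 FPKM in vehicle and 3.89, 31.2 and 9.85 FPKM in R. It did not pass (log2 change -2.50, adjusted p = 0.083). Among the removals of 1 library it passed without R replicate 2 (-3.22, adjusted p = 0.0451), and it passed with array weights (-3.77, adjusted p = 0.006). The calls of Hes1, Acsl1 and Nampt held whichever library was left out. The macrophage markers are given above: 4 of 18 fell and 12 had an unadjusted p under 0.05 in limma, while the ranges of their sums overlapped. Their part in the falls of Cd36 and Acsl1 was not tested.

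**Figure D4:**
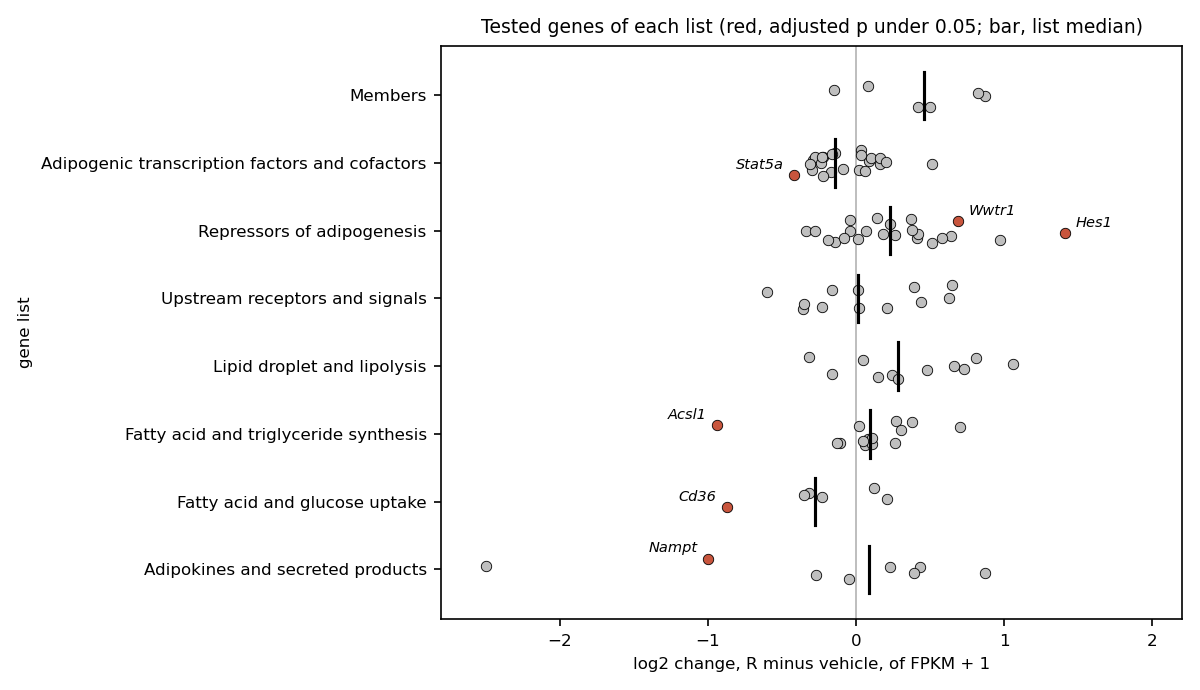
Log2 change of FPKM + 1, R minus vehicle (horizontal axis), of the tested genes of each list, 1 point a gene, with the list median as a bar. Red points passed limma's adjusted p and are named. The 6 members have the highest median, 0.46, yet none of them is red, and each list straddles 0.

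The tested genes most like Pparg were sought over the 6 libraries, by the root mean square difference of log2 values, each centred on its mean. They were Serpinh1, the collagen chaperone (0.073), Ndn, which encodes necdin (0.074), and Bgn, which encodes the matrix proteoglycan biglycan (0.083). Serpinh1 had 259, 338 and 269 FPKM in R and 129, 212 and 161 FPKM in vehicle, highest in replicate 2 of each group as Pparg was. Ndn had log2 change 0.95 (adjusted p = 0.032), a call kept only when vehicle replicate 2 was the library removed (adjusted p up to 0.11 otherwise). Serpinh1 (0.80) and Bgn (0.79) did not pass. Since the search used these same 6 libraries, a shared peak and a similar change follow from the choice of the genes.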

How the data were processed

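The data are 1 deposited table of FPKM, which the authors computed per gene and library before deposit, for 3 R and 3 vehicle libraries grouped by sample title. Per the submitters' processing notes, GRCm38 (mm10) served as the reference build and the tools included edgeR 3.18.1. The aligner, counter, annotation and strandedness are not given in the sources used. Of 49328 complete lines, 49281 matched a symbol of GENCODE M21 and the last line was broken off. Depth was estimated from the step that 1 read adds: within 0.02 reads, 98.3% to 98.4% of values under 20.5 reads were whole multiples of it, given GENCODE exon lengths that may not be the authors'. Read numbers and floors cover counting error only. Coordinates and exon overlaps are from GENCODE M21 on GRCm38.

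Log2(FPKM + 1) was fitted in limma 3.58.1 (R 4.3.3) with 2 groups, equal weights and a trended prior, and p-values were Benjamini-Hochberg adjusted over the 11862 genes with at least 1 FPKM in at least 3 libraries. The FPKM scale is relative, and adding 1 understates changes of low genes. The fit was also run on simulated reads that had the same spread beyond counting error in every gene. A spread as wide as that of Adipoq in vehicle (8.09 ± 9.84 FPKM) was not simulated, so the check does not cover such genes. All members were named; from each list the 3 most abundant tested genes and up to 6 genes past the threshold were named, and the likeness search took the member of largest change where none reached a log2 change of 1. Ddit3, with 2 identifiers, was taken at the longer. One listed gene is not reported here and was left out of the list counts. Members and lists were chosen with earlier results of these data known. Alternatives changed the pseudocount, filter, scaling, weights, replicate block and libraries.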

Additional observations from a re-analysis of the deposited data

How the results depend on the processing

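The number of genes called, 809, was 344 without a filter on low values and 2460 with array weights, and ran from 337 to 879 when 1 library was left out. The number of members called, 0, was 1 with the stricter filter and with equal medians (Pparg in each) and 2 with array weights (Fabp4 and Scd1). It ran from 0 to 2 when 1 library was left out. The further pathway genes called, 6, were 30 with array weights and ran from 3 to 9 when 1 library was left out. Values near 0 changed sign: Cebpb was -0.02, Adipoq 0.04, Ccn5 -0.08 and Plin3 -0.04 without R replicate 1, Adipoq was 0.72 without vehicle replicate 2, and Ccn5 was -0.06 without vehicle replicate 1. Among the members below the filter, Cfd turned from -0.14 to 0.24 and Zfp423 from -0.06 to 0.18 without vehicle replicate 2, and Zfp423 to 0.01 without R replicate 1. Leaving out each library in turn gave log2 changes from -0.02 to 0.19 for Cebpb, -0.78 to 0.72 for Adipoq, -0.08 to 0.09 for Ccn5 and -0.04 to 0.12 for Plin3. The cause was not tested. Over the 6 tested members, 72 of 84 alternative values kept their direction and their side of the threshold. Over all 35 genes followed it was 429 of 490. Of the 7 genes past the threshold, Stat5a, Wwtr1, Cd36 and Ndn were lost when low genes were not filtered out (adjusted p = 0.077, 0.13, 0.12 and 0.099).

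No label says whether the replicate numbers of the titles pair the libraries. Deviations from the group means correlated at 0.14, -0.01 and -0.03 for the numbers 1, 2 and 3 across tested genes. R replicate 2 and vehicle replicate 3 also correlated at 0.14. With 3 libraries a group, these values cannot decide whether the numbers pair the libraries. With the replicate block 756 genes, 1 member (Pparg, adjusted p = 0.012) and 11 pathway genes were called. Stat5a was not among them (adjusted p = 0.075), while Hp (adjusted p = 0.038) was. Depth limits Cfd most, with 2 reads in 2 libraries, and then Klf5 and Plin1. Only 3 libraries a group limit the precision of Adipoq, Plin1 and Scd1.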
